A study of Mus musculus with 6 samples.

Results

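The ErbB receptors and the EGF family ligands were followed in cultured mammary epithelial cells with and without the histone demethylase Jarid1b. Members were chosen by name. All probes whose platform gene symbol, updated to the current one, was Egfr, Erbb2, Erbb3, Areg, Ereg, Hbegf, Tgfa, Btc or Nrg1 were taken, which gave 17 of the 45281 probes on the array. These 17 probes stand for 8 of the 9 listed genes, because no probe carried the name of Areg, which is not analysed here. The KO group holds 3 Jarid1b-/- cultures (labelled Jarid1B Knock Out) and the WT group 3 Jarid1b+/+ cultures (labelled Wild type), lettered as pairs A, B and C, with no treatment named. All were mouse mammary epithelial cells of early passage, harvested before confluence. Strain, age and the deleted part of the gene are not given in the sources used here. Nothing says that each culture had an animal of its own, so the p-values speak of the spread among these 6 samples alone, part of which may be technical.

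The ErbB family consists of receptor tyrosine kinases that pair up when a ligand of the epidermal growth factor (EGF) family binds. Egfr binds EGF-like ligands such as heparin-binding EGF-like growth factor (Hbegf), transforming growth factor alpha (Tgfa), epiregulin (Ereg) and betacellulin (Btc). Erbb2 has no known ligand of its own and serves as a partner, and Erbb3 binds neuregulins such as Nrg1 but has a weak kinase. The ligands are made as membrane-bound precursors and are released by proteases, and in the mammary gland the system takes part in ductal growth and in the development of milk-producing lobules. Jarid1b, now named Kdm5b, is a demethylase of histone H3 lysine 4 methylation, a mark found near the start sites of active genes.

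The arrays measure total RNA as probe brightness, given below as background-corrected, quantile-normalised log2 intensity. A probe was called detected where its detection p against the negative control beads of its array was under 0.05. The number of arrays limits the precision. Between 17033 and 18686 probes were detected per array, and the median raw intensity per array ran from 95.3 to 100.7. The brightest probe of Kdm5b was detected on 0 of 3 KO and 3 of 3 WT arrays and was at least 4.94-fold lower in KO. Its limma log2 difference was -2.46 (SE 0.18, adjusted p = 0.0122). The other tested probes were detected on the same arrays and were at least 4.51-fold and 1.51-fold lower. They differed by -2.35 and -0.90 (limma adjusted p = 0.0155 and 0.924 over probes). For the gene, the adjusted p ran from 0.00729 to 0.189 over the 16 alternatives that tested it. The call of Kdm5b was lost in 8 of the 16, and the strictest detection filter left it untested. In 5 of the 8 losses an array was left out and the log2 difference was -2.47 to -2.35, and in the other 3, with no background correction, the authors' deposited value table and an offset of 50, it was -0.98, -0.89 and -1.44. Pair C stood apart from the other arrays along the leading principal component (56.1% of the variance over genes), so the value from pairs A and B only is given beside each member's difference. The epithelial markers Krt8, Krt18, Krt5, Krt14 and Cdh1 were detected on all 6 arrays, while the probe of Epcam was detected on 0.

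Of the 8 genes with a probe, 5 were detected on enough arrays to be tested (at least 3 of 6), the receptors Egfr and Erbb2 and the ligands Hbegf, Btc and Nrg1. Erbb3, Ereg and Tgfa were not tested. No difference between KO and WT passed the test in these 5 genes. In limma with adjustment over 10419 genes, 0 of 5 had an adjusted p under 0.05 (background 0.0288% of all tested genes), and 0 of 5 had an unadjusted p under 0.05 (background 3.24%). The groups overlapped in all 5, against 8.27% of all tested genes whose groups did not. A fit with a replicate block for the pair called 0.0288% of all tested genes, had 8.68% of them at an unadjusted p under 0.05, and held 0 of the 5 genes at either level. Log2 differences of the 5 ran from -0.17 to 0.30, and the limma adjusted p was 0.9999 for each.

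**Figure D1:**
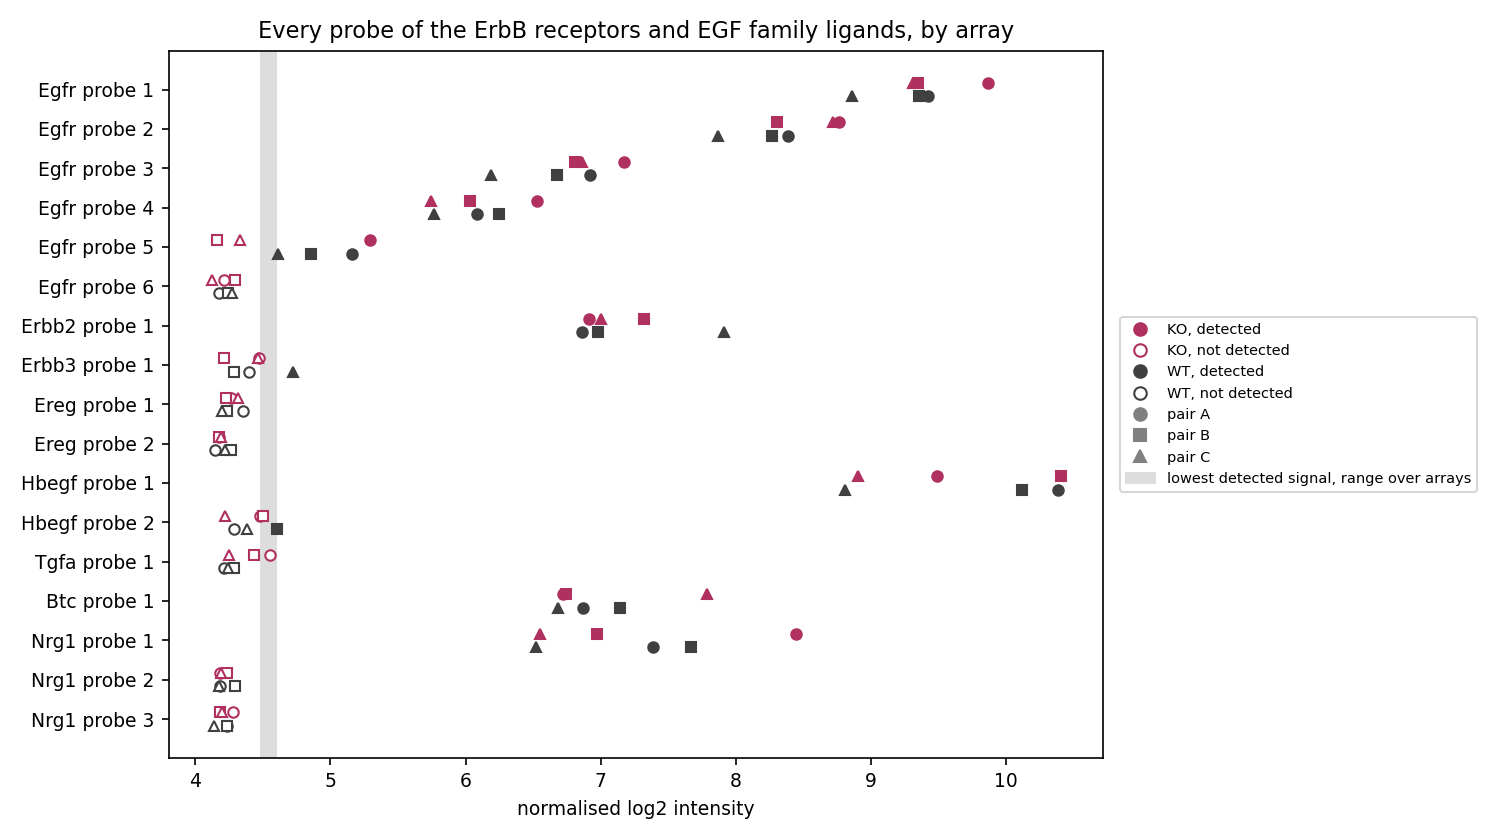
Normalised log2 intensity (horizontal axis) of each of the 17 probes in the 3 KO arrays (red, upper row of each probe) and the 3 WT arrays (grey, lower row), with pairs shown by symbol, filled symbols for a detection p under 0.05 and probes of a gene numbered from bright to dim, the brightest first. The shaded band spans the lowest detected signal of the 6 arrays, and the probes of Erbb3, Ereg and Tgfa lie in or near it, while brightness cannot be compared between probes.

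Egfr, the receptor shared by most of the ligands, was higher in KO by group mean, with a 95% interval that included 0. Its brightest probe read 9.87, 9.35 and 9.31 in KO cultures A, B and C, against 9.42, 9.35 and 8.86 in WT cultures A, B and C (log2 intensity). The KO array of pair A was the highest and the WT array of pair C the lowest, and the values of the groups overlapped between them. The means were 9.51 ± 0.31 in KO and 9.21 ± 0.30 in WT (SD, n = 3 each), which differed by 0.30 on the log2 scale (SE 0.24, 95% interval -0.27 to 0.86). Within pairs the difference was 0.45 in A, -0.0036 in B and 0.45 in C. It was 0.22 in pairs A and B only, 0.12 without KO replicate A or without WT replicate C, and 0.16 with each array scaled to its median. The interval leaves room for a fold between 0.832 and 1.82, so a 2-fold change in either direction lies outside it.

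Egfr has 6 probes, of which 5 were tested, and they did not all have the same sign. The second probe read 8.76, 8.31 and 8.72 in KO A, B and C, against 8.39, 8.27 and 7.87 in WT A, B and C. Its difference of 0.42 (SE 0.22) was the largest among the Egfr probes, and the values of KO B and WT A still overlapped. The next probe in brightness differed by 0.35 (SE 0.24) and the one after it by 0.07 (SE 0.25). Within pairs A, B and C the second probe differed by 0.37, 0.04 and 0.85 and the third by 0.25, 0.13 and 0.67, so these 2 of the 5 tested Egfr probes were positive in all 3 pairs, while the sign of the brightest turned in pair B. Of all tested probes, 31.2% had the same sign in all 3 pairs. The dimmest tested probe differed by -0.28 (SE 0.33) and was detected on 1 of 3 KO and 3 of 3 WT arrays, so its size is limited by background. The remaining probe was detected on no array. The probes with 0.30 and -0.28 are annotated to one RefSeq transcript and those with 0.35 and 0.07 to another. None of the 5 probes had an adjusted p under 0.05 or an unadjusted p under 0.05 in limma over 17920 probes (backgrounds 0.0167% and 3.03%), and the replicate block gave 0 of 5 at either level (backgrounds 0.0223% and 8.08%).

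Markers of fibroblasts, cells in which Egfr is also expressed, are set beside Egfr here, a choice made with the values of the marker lists known. The 7 of 9 tested fibroblast markers had a median difference of 0.53 (pair A 0.75, pair B -0.10, pair C 0.89), and 7 of 7 were positive, beside 48.2% of all tested genes. Their mean log2 level was 7.79 to 8.82 in KO arrays and 7.77 to 7.97 in WT arrays. Of these markers, 0 had an adjusted p under 0.05 and 3 had an unadjusted p under 0.05 (Pdgfrb, Col1a1 and Col3a1, beside 3.24% of all tested genes). With the replicate block the same 3 had an unadjusted p under 0.05 (background 8.68%) and 0 an adjusted one, and Postn was detected on no array. Their part in the Egfr values was not tested, and in such bulk samples fewer cells of a type cannot be told apart from less RNA per cell.

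Erbb2, the partner receptor without a ligand, has 1 probe here. It read 6.91, 7.32 and 6.999 in KO A, B and C, against 6.86, 6.98 and 7.91 in WT A, B and C. The WT array of pair C stood above all others, and the other 5 arrays lay between 6.86 and 7.32. The means were 7.08 ± 0.22 in KO and 7.25 ± 0.57 in WT (SD, n = 3 each), which differed by -0.17 on the log2 scale (SE 0.30, 95% interval -0.89 to 0.54). Within pairs the difference was 0.05 in A, 0.34 in B and -0.91 in C. Its direction rested on WT replicate C, since it was 0.16 without that array and 0.19 in pairs A and B only.

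Erbb3, the neuregulin receptor, was detected only on the WT array of pair C, which was also the highest array for Erbb2. Its probe read 4.47, 4.21 and 4.47 in KO A, B and C, against 4.40, 4.29 and 4.72 in WT A, B and C. The 5 arrays without detection lay at the level of the negative control beads and have no order. No fold is given, because the mean over the WT arrays was itself below the lowest detected signal. Of the markers of hormone-sensing luminal cells, which belong to the luminal layer where Erbb3 is known to be expressed, 7 of 9 were tested and had a median difference of -0.53 (pair A -0.79, pair B -0.58, pair C -0.44). Their mean log2 level was 6.40 to 6.97 in KO arrays and 7.09 to 7.36 in WT arrays, and 0 of 7 were positive, beside 48.2% of all tested genes. In limma 0 of 7 had an adjusted p under 0.05 and 1 of 7, the transcription factor Spdef, had an unadjusted p under 0.05 (background 3.24%). With the replicate block 4 of 7 had an unadjusted p under 0.05 (Foxa1, Cited1, Spdef and Tbx3, background 8.68%) and 0 of 7 an adjusted one. The other luminal list, of luminal progenitor and alveolar markers, had 9 of 9 tested and a median of 0.07, with 5 positive and 4 negative. In limma 2 of them, Csn2 (1.70) and Wap (3.35), had an unadjusted p under 0.05 (background 3.24%), both higher in KO, and 0 an adjusted one. With the replicate block 3 had an unadjusted p under 0.05 (background 8.68%) and 0 an adjusted one. The part of either list in the readings of Erbb2 and Erbb3 was not tested.

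Promoter sequences are shown for the 3 tested members that have an entry in the RefSeq promoter table (build GRCm38.p6), since the deleted enzyme acts on histone marks near start sites. Each runs 5′ to 3′ on the strand of its gene, from 250 bases before to 50 after the annotated start, and capitals mark CG dinucleotides. Egfr lies on the plus strand of chromosome 11 (chr11:16751953-16752252), Erbb2 on the plus strand of the same chromosome (chr11:98412234-98412533) and Btc on the minus strand of chromosome 5 (chr5:91402945-91403244).
Egfr: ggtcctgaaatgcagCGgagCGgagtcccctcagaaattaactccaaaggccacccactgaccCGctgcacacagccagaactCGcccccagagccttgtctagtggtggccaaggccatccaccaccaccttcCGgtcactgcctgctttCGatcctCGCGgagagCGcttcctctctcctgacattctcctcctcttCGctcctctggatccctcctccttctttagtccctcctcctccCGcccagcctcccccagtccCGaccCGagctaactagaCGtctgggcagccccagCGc
Erbb2: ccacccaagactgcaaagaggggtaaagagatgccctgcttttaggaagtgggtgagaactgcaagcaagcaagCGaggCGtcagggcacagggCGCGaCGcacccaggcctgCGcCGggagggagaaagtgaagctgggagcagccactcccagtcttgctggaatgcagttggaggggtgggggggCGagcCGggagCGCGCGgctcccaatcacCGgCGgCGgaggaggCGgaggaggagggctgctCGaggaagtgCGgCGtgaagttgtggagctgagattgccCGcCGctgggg
Btc: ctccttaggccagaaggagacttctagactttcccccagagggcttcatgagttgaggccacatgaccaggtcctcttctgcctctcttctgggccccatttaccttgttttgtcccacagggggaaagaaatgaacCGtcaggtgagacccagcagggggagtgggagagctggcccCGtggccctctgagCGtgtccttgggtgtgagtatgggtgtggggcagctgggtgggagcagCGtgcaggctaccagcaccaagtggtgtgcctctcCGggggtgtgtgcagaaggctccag
Over all 32851 windows of the table the median was 7 CG dinucleotides. Egfr held 15 (at the 67.0th percentile), Erbb2 21 (76.9th) and Btc 5 (43.6th). The letters GGGCGG, searched on both strands, were found at 1 place in the Egfr window, starting 9 bases before the start site on the opposite strand, and not in the windows of Erbb2 and Btc, and 35.7% of all windows held them. The letters TATAAA were in none of the 3 windows and in 13.6% of all windows. A match is a description of these letters and not of a bound factor. None of the 3 genes passed the test, and the CG counts stand beside log2 differences of 0.30 for Egfr, -0.17 for Erbb2 and 0.18 for Btc.

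**Figure D2:**
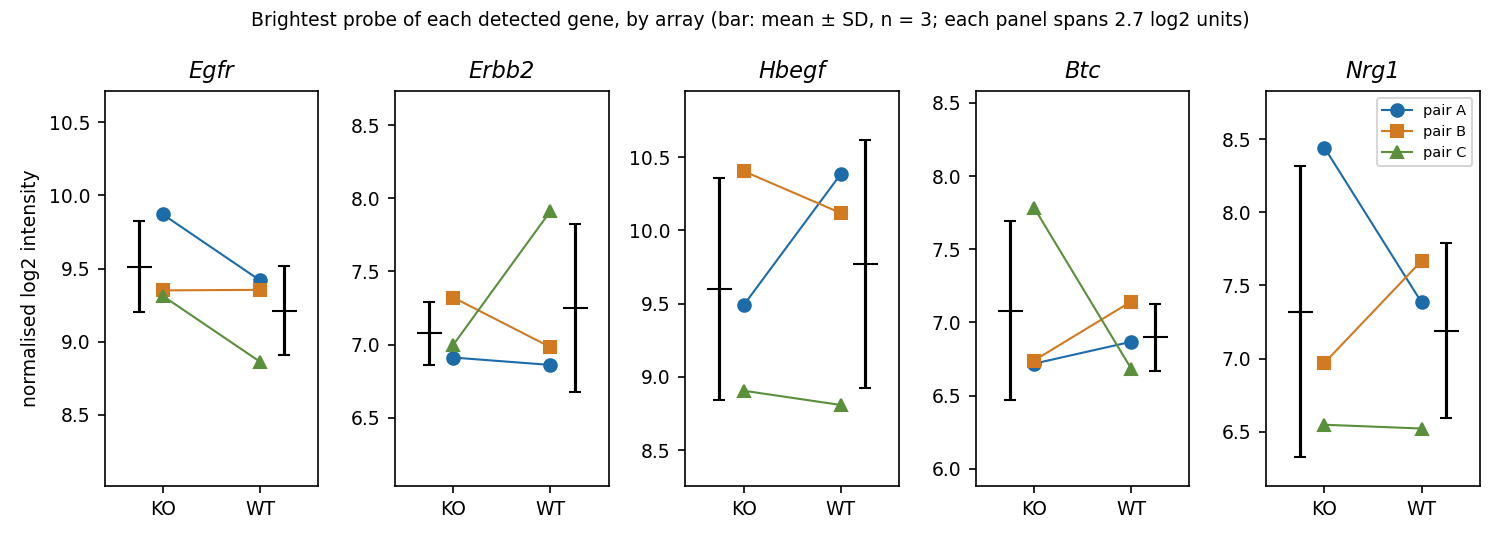
Normalised log2 intensity (vertical axis) of the brightest probe of each of the 5 tested genes in KO (left) and WT (right) arrays, with a line joining the 2 arrays of a pair and black bars for the mean ± SD of 3 arrays. The values of KO and WT overlap in every panel, and Hbegf and Nrg1 are spread wider over the cultures than Egfr, Erbb2 and Btc.

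Hbegf, a ligand of Egfr that is shed from the cell surface, was read by 1 of its probes. That probe, the brighter of the pair, gave 9.49, 10.41 and 8.91 in KO A, B and C, against 10.39, 10.12 and 8.81 in WT A, B and C. Both arrays of pair C were the lowest of their group, and the KO array of pair A came next, below both other WT arrays. The means were 9.60 ± 0.76 in KO and 9.77 ± 0.84 in WT (SD, n = 3 each), which differed by -0.17 on the log2 scale (SE 0.51, 95% interval -1.38 to 1.04). Within pairs it was -0.90 in A, 0.29 in B and 0.10 in C, and -0.30 in pairs A and B only. The sign turned without KO replicate C (0.18), without WT replicate A (0.14) and without WT replicate B (0.0036). The 95% interval, which takes no account of the pairs, includes a 2-fold change in either direction. The replicate block gave the same difference of -0.17 with a smaller SE of 0.25. A second probe was detected on 0 of 3 KO and 1 of 3 WT arrays, with 4.22 to 4.50 in KO and 4.28 to 4.60 in WT, and was not tested.

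Btc, a ligand that can engage Egfr as well as Erbb4, has 1 probe. It read 6.72, 6.74 and 7.78 in KO A, B and C, against 6.87, 7.14 and 6.68 in WT A, B and C. The KO array of pair C stood above all others, and the other KO arrays lay within the WT range. The means were 7.08 ± 0.61 in KO and 6.90 ± 0.23 in WT (SD, n = 3 each), which differed by 0.18 on the log2 scale (SE 0.32, 95% interval -0.57 to 0.93). Within pairs it was -0.15 in A, -0.40 in B and 1.10 in C. The sign rested on KO replicate C, since the difference was -0.17 without that array and -0.28 in pairs A and B only.

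Nrg1, the neuregulin that binds Erbb3 and Erbb4, was read by 1 of its 3 probes. That probe gave 8.44, 6.97 and 6.55 in KO A, B and C, against 7.38, 7.67 and 6.52 in WT A, B and C. The KO array of pair A was the highest, and both arrays of pair C the lowest and close to each other. The means were 7.32 ± 0.99 in KO and 7.19 ± 0.60 in WT (SD, n = 3 each), which differed by 0.13 on the log2 scale (SE 0.52, 95% interval -1.10 to 1.36). Within pairs it was 1.06 in A, -0.70 in B and 0.03 in C. It was 0.18 in pairs A and B only, -0.43 without KO replicate A and -0.21 without WT replicate C, and with median scaling it was 0.03. Here too the 95% interval, which takes no account of the pairs, includes a 2-fold change in either direction. The replicate block gave the same difference of 0.13 with a smaller SE of 0.31. The other probes of Nrg1 were detected on no array, and the annotation used here gives the same RefSeq transcript for all 3.

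Among markers of basal cells, a source of Nrg1 in the mouse mammary gland, the transcription factor gene Trp63 differed by 2.07, -0.51 and 0.10 in pairs A, B and C and the keratin gene Krt5 by 1.32, -0.99 and -0.13. Both were picked after their values were seen. The basal list as a whole, with 7 of 9 markers tested, had pair medians of 0.03, 0.00 and -0.13 and a median of 0.01. Its mean log2 level was 9.77 to 10.62 in KO arrays and 9.94 to 10.77 in WT arrays, with 0 of 7 at an adjusted or an unadjusted p under 0.05, and Oxtr and Cnn1 were not tested. Their part in the Nrg1 values was not tested.

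Ereg and Tgfa, both ligands of Egfr, were detected on no array. The Ereg probes read 4.17 to 4.32 in KO and 4.15 to 4.35 in WT, and the Tgfa probe read 4.25 to 4.56 in KO and 4.21 to 4.28 in WT. The KO array of pair A came nearest to detection for Tgfa, with a detection p of 0.0502. The lowest detected signal per array lay between 4.49 and 4.60, so these readings carry no order, and the transcripts were not detectable by these probes rather than shown to be absent. Over all probes of the array, 51% were detected on no array.

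**Figure D3:**
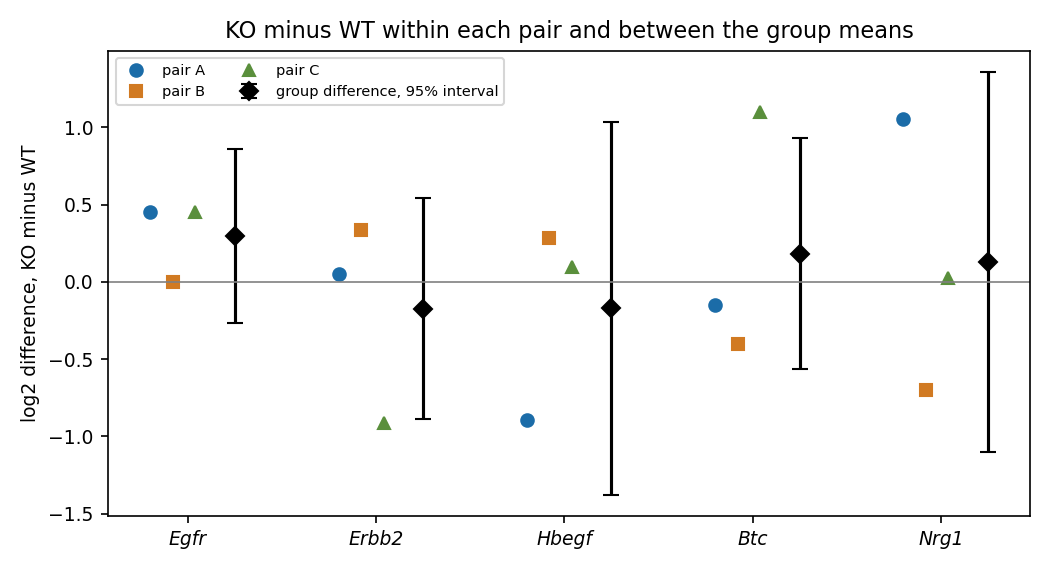
Log2 difference KO minus WT (vertical axis) of the 5 tested genes within pairs A, B and C (coloured symbols) and between the group means (black diamonds, with the 95% interval from limma without the replicate block). Every interval includes 0, and on the brightest probe shown each gene has at least 1 pair of the opposite sign to another.

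The signs of the 5 tested genes were mixed among receptors and among ligands. They cannot decide whether the 2 groups moved together or apart, because no difference passed the test and most signs were not stable. Over the 17 alternatives the sign turned in 2 for Erbb2, 3 for Hbegf, 2 for Btc and 2 for Nrg1, and in none for Egfr. Of the receptors Egfr had a positive difference and Erbb2 a negative one, and of the ligands Btc and Nrg1 had positive differences and Hbegf a negative one. On its brightest probe none of the 5 genes had the same sign in all 3 pairs, while 31.4% of all tested genes did. The median over the 5 was 0.13, beside -0.01 over all tested genes, and 3 of 5 were positive, beside 48.2% of all tested genes. These 5 had passed a detection filter and do not speak for Erbb3, Ereg, Tgfa and Areg.

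The spread of Hbegf and Nrg1 over the 6 arrays went mostly with the pair term, and in both genes the pair C arrays were the lowest. Within pairs A and B, KO and WT still differed by -0.90 and 0.29 for Hbegf and by 1.06 and -0.70 for Nrg1. Pair held 82.9% of the sum of squares of Hbegf, 70.4% of that of Nrg1, 60.5% for Egfr, 40.5% for Erbb2 and 22.5% for Btc. The median over all tested genes was 60.3%. Genotype held 26.1% for Egfr, 5.71% for Erbb2, 5.55% for Btc, 1.67% for Hbegf and 0.915% for Nrg1, beside a median of 9.58%. These shares are descriptions without a test, and the pair term spans more contrasts than the genotype term. The standard deviation over all arrays was 0.72 for Hbegf and 0.74 for Nrg1, wider than or equal to that of 93.4% and 93.7% of all tested genes, and 0.32 for Egfr (56.2%).

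The patterns of the members over the 6 arrays differed from each other. The nearest pair of members was Egfr and Nrg1, with a root mean square distance of 0.45 log2 units between their deviations from their own means, and the farthest was Erbb2 and Nrg1, with 0.94. Other genes lay much closer to each member. Nearest to Egfr were Nanos1 (0.07), Ppa1 (0.09) and Cct6a (0.09), and nearest to Erbb2 were Ctdsp2 (0.06), the MAP kinase kinase kinase gene Map3k1 (0.09) and S100a9 (0.10). Nearest to Hbegf were the galectin gene Lgals3 (0.09), Rnf19b (0.10) and Gnat1 (0.11). Nearest to Btc were Lime1 (0.09), Jaml (0.09) and the B-cell linker gene Blnk (0.11). Nearest to Nrg1 were Rcc1 (0.17), Cdca7 (0.18) and the thrombospondin gene Thbs1 (0.19). With 6 arrays and 10419 genes short distances can arise between unrelated genes, and how often they do was not computed. The search left out genes with placeholder symbols and genes with a much smaller SD than the member. The median distance of a gene, taken without that SD limit, was 0.41 to Egfr, 0.43 to Erbb2, 0.72 to Hbegf, 0.48 to Btc and 0.73 to Nrg1.

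The remaining genes of the pathway were described by lists of ligands, shedding factors, regulators and downstream parts. Of 72 listed genes 49 were tested, and the rest were detected on too few arrays or had no named probe. In limma 0 of the 49 had an adjusted p under 0.05 (background 0.0288%) and 0 an unadjusted p under 0.05 (background 3.24%). The median difference was -0.08, with 19 positive and 30 negative. The groups did not overlap for 3 of the 49 (6.12%, beside 8.27% of all tested genes). These were Nrg4 (-0.28, near the lowest detected signal), Cd9 (-0.18) and Spred2 (0.10), named after their values were seen. With the replicate block 0 of 49 had an adjusted p under 0.05 and 3 had an unadjusted p under 0.05 (6.12%, beside 8.68% of all tested genes), namely Rhbdf1, Sh3kbp1 and Usp8.

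**Figure D4:**
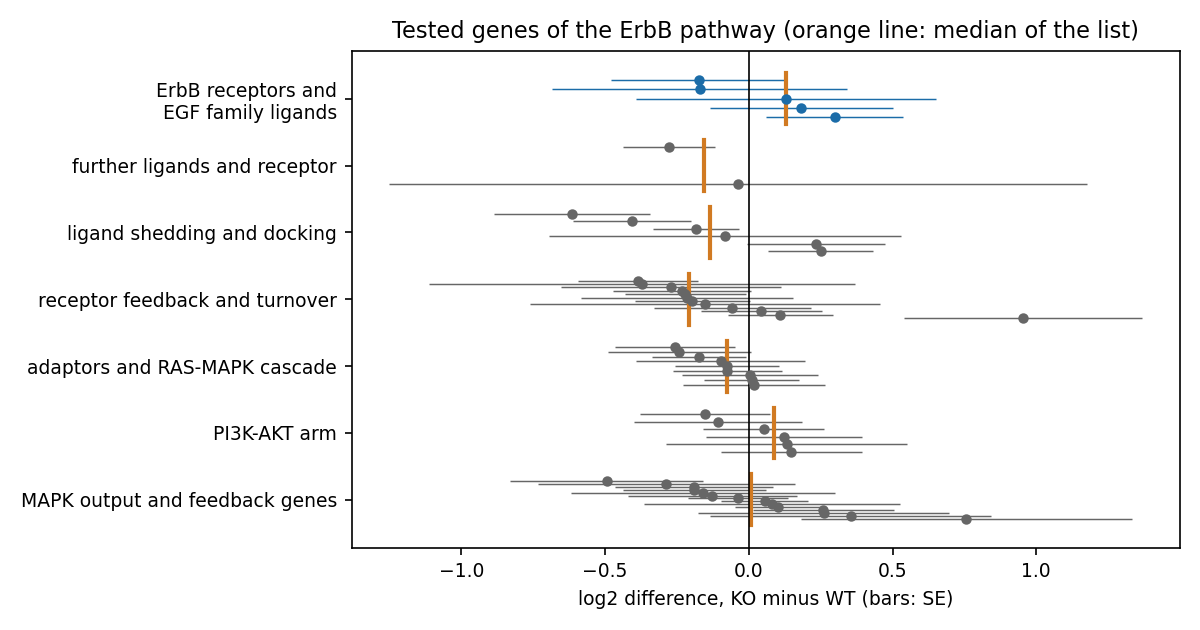
Log2 difference KO minus WT (horizontal axis, bars for the SE) of each tested gene, for the 5 tested ErbB receptors and EGF family ligands (top, blue) and the 6 lists of other pathway genes (grey), with an orange line at the median of each. The medians of the lists lie between -0.21 and 0.09, and no gene passed the test.

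Epgn, which encodes the Egfr ligand epigen, had the widest differences between pairs among the further ligands. It read 8.93, 10.69 and 8.75 in KO A, B and C, against 10.88, 11.07 and 6.53 in WT A, B and C. The WT array of pair C stood far below all others. The log2 difference was -0.04 (SE 1.21), composed of -1.95 (pair A), -0.38 (pair B) and 2.22 (pair C), and it was -1.17 in pairs A and B only. It ranged from -1.52 without WT replicate C to 0.75 without WT replicate B, and was 0.23, 0.31 and 0.66 without KO replicate A, KO replicate C and WT replicate A. Nrg4, a neuregulin that binds Erbb4, differed by -0.28 (SE 0.16), with -0.50 for the mean of its probes and -0.07 without background correction. Its brightest probe read 4.49 to 4.67 in KO and 4.79 to 4.99 in WT, near the lowest detected signal, so its size is limited by background. The receptor gene Erbb4 and the ligand genes Egf and Nrg3 were detected on no array.

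Among the shedding and docking genes, 0 of 6 tested passed in either direction, with a median of -0.13. Rhbdf1 and Rhbdf2, which encode the iRhom partners of the sheddase Adam17, differed by -0.61 (SE 0.27) and -0.41 (SE 0.20), and each was negative in all 3 pairs. The Rhbdf2 value depended on the background handling, with -0.20 at an offset of 50, -0.12 without background correction and -0.11 on the authors' deposited table, and that of Rhbdf1 was -0.38 without KO replicate C. Adam17 itself differed by 0.25 (SE 0.18) and Cd9, a tetraspanin that associates with the Hbegf precursor, by -0.18 (SE 0.15). With the replicate block Rhbdf1 had an adjusted p = 0.431 in limma. Adam10 was detected on 1 of 6 arrays and not tested.

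Among genes of receptor feedback and turnover, 0 of 12 tested passed in either direction, with a median of -0.21. Sh3kbp1, an adaptor in the internalisation of Egfr, read 8.41, 7.45 and 9.21 in KO A, B and C, against 7.56, 7.32 and 7.33 in WT A, B and C. In pairs A and C the KO array was above all WT arrays, and in pair B it lay within the WT range. Its difference was 0.95 (SE 0.41), or 0.49 in pairs A and B only, 0.53 without KO replicate C and 1.41 without KO replicate B as the range over omitted arrays. Usp8, a deubiquitinase of the endosomal route, differed by -0.39 (SE 0.21) and by -0.11 without background correction, Erbin, which binds Erbb2, by -0.22 (SE 0.21), and the ubiquitin ligase gene Cblc by -0.20 (SE 0.20). Lrig2 and Cbl were detected on 1 of 6 arrays and not tested.

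The signalling lists held no gene past the test either. Of the adaptors and the RAS-MAPK cascade 0 of 9 passed, with a median of -0.08, and Araf, Grb2, Gab1 and Map2k2 differed by -0.26 (SE 0.21), -0.17 (SE 0.16), -0.24 (SE 0.25) and -0.08 (SE 0.18). Grb2 read 4.60 to 4.96 over the arrays, near the lowest detected signal, and differed by -0.05 without background correction. Sos1 was detected on 1 array and Braf and Map2k1 on none. Of the PI3K-AKT arm 0 of 6 passed, with a median of 0.09, and Pik3ca, Pik3r1, Pik3r2 and Pik3cb differed by -0.15 (SE 0.23), 0.15 (SE 0.25), 0.12 (SE 0.27) and -0.11 (SE 0.29). Akt1 and Akt2 were detected on 1 array each.

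Genes that MAP kinase activity is known to induce, which serve as a readout of the pathway, had no common direction. Of 14 tested, 7 were positive and 7 negative, 0 passed in either direction, and the median was 0.01. Dusp5, a phosphatase that acts on ERK kinases, differed by -0.49 (SE 0.34) and Spry4, a feedback inhibitor, by 0.26 (SE 0.24). Etv4, an ETS transcription factor, read 7.36, 6.47 and 7.76 in KO A, B and C, against 5.51, 6.15 and 7.66 in WT A, B and C. Each KO array was above the WT array of its pair, while the groups overlapped, and the difference was 0.76 (SE 0.57), or 1.08 in pairs A and B only. With single arrays left out it ran from 0.29 without WT replicate A to 1.37 without WT replicate C. The authors' deposited table gave 0.37 and uncorrected intensities 0.40. The immediate early gene Egr1 differed by -0.19 (SE 0.25). Spry2 was detected on no array.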

How the data were processed

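Each of the 6 cultures, 3 KO and 3 WT, gave total RNA that was turned into biotinylated cRNA for an Illumina mouse array, per the labels' protocols. Raw intensity was deposited as the brightness of each probe, not normalised, per the file headers. A detection p-value, also deposited, sets each probe against the negative control beads of its array, per the file headers. The authors' deposited value table is on a log2 scale with the same median (6.75) in every column, with a transform not given in the sources used here. It ranks probes as the raw intensities do (Spearman correlation 1 on each array), so it runs in the same direction, without centring of genes. The submitters' processing notes name GenomeStudio and lumi, without version or role.

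The neqc function of limma 3.58.1, run under R 4.3.3, normalised the intensities (background from the detection p-values, offset of 16, quantile normalisation, log2). Probes with a detection p under 0.05 on at least 3 of 6 arrays were tested, 17920 in all. One symbol was given for 34885 of the 45281 probes and several for 18, while 10378 have no name here. The KO minus WT difference was tested, two-sided, with lmFit and eBayes over all tested probes. A gene was its brightest tested probe, with Benjamini-Hochberg adjustment over the 10419 genes, or over probes where single probes are given. In simulated data with known changes put in, the fit was checked only for returning differences of about the right size. Rates of missed and false calls are not given here. Each bound given for Kdm5b sets the mean of the bright group against the mean, over the dim arrays, of the higher of the lowest detected signal and the probe's own signal.

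The titles give the cultures the letters A, B and C, read here as pairs. The main test and its 95% intervals took no account of the letters. Deviations from the group means correlated within each letter (0.328, 0.481 and 0.718 for A, B and C), so the letter served as a replicate block in an alternative fit. That fit gave an SE of 0.17 for Egfr, 0.25 for Erbb2 and 0.29 for Btc, against 0.24, 0.30 and 0.32 in the main fit. WT of pair A with KO of pair B, which are no pair, gave 0.454. Other alternatives changed the background correction, scaling, offset (50), detection filter, probe rule and variance prior, used the authors' table or left out each array. A fit without pair C was chosen after seeing the data. The members and lists were chosen with earlier results of these data known. Named were all members with every probe, Kdm5b, up to 4 genes of each pathway list with the smallest p, listed genes that were not detected, and the 3 genes nearest to each tested member.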

Additional observations from a re-analysis of the deposited data

How the results depend on the processing

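None of the 5 tested members had an adjusted or an unadjusted p under 0.05 in limma under any of the 17 alternatives, with 0.629 as the lowest adjusted p. Over the alternatives the log2 difference ran from 0.12 to 0.40 for Egfr, -0.37 to 0.19 for Erbb2, -0.65 to 0.18 for Hbegf, -0.28 to 0.36 for Btc and -0.43 to 0.51 for Nrg1. The sign changed in 0, 2, 3, 2 and 2 of the 17 for these genes, always by omission of an array or with pairs A and B only (Btc -0.28, Erbb2 0.19). With single arrays omitted the range was -0.37 to 0.16 for Erbb2, -0.65 to 0.18 for Hbegf, -0.17 to 0.36 for Btc, -0.43 to 0.51 for Nrg1 and -1.52 to 0.75 for Epgn. Of the 22 named pathway genes outside the members, 21 moved by over 1.5 times in at least 1 alternative and Cd9 did in 0. Over all alternatives Pik3ca ran from -0.32 to 0.040, Pik3cb from -0.31 to 0.18, Pik3r1 from -0.035 to 0.44 and Pik3r2 from -0.036 to 0.38. With pairs A and B only Map2k2 gave 0.044 and Pik3cb 0.030. The count of called genes over the whole array, 3, was 1 on the authors' table, with an offset of 50 and without background correction, 0 with detection p under 0.01 on all 6 arrays (237 at an unadjusted p under 0.05), and 1 to 2 with an array omitted. The unadjusted count, 338, was 904 with the replicate block, 956 without a detection filter, 618 with pairs A and B only, 543 over single probes, and 160 to 768 with an array omitted. The replicate block changed no call of a member or of a listed gene. Median scaling shifted the median over all genes to -0.09, against -0.01 in the analysis as reported and -0.02 to 0.01 under the other alternatives. Probes near the lowest detected signal, among them those of Erbb3, Ereg, Tgfa, Nrg4 and Grb2, are limited by background.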
